A study of Rattus norvegicus with 18 samples.

Results

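Poly(A) RNA of the cervical dorsal root ganglia (DRG) was examined for 10 genes of the circadian clock, namely *Per1*, *Per2*, *Per3*, *Arntl* (now named *Bmal1*), *Clock*, *Dbp*, *Nr1d1*, *Nr1d2*, *Tef* and *Ciart*. They were taken by gene symbol and not by a cut on measured values, but were chosen with earlier results of these data known. All 10 were found among the 15075 RefSeq identifiers with a read. DRG hold the cell bodies of sensory neurons together with satellite glia, Schwann cells, vessels and connective tissue. The 18 adult lister hooded rats formed 3 groups of 6. The naive rats had no operation. The bPYX+GFP rats had both corticospinal tracts transected in the medullary pyramids (bPYX) and an adeno-associated vector, AAV1, with green fluorescent protein (GFP) under the CMV promoter injected into forelimb flexor muscles of 1 side. The bPYX+NT3 rats had the same injury and AAV1 with human neurotrophin-3 (NT3) under the same promoter. C6 to C8 DRG of the treated side were pooled within each rat, 10 weeks after injury in the operated groups, so that neurons and glia of several ganglia were read together. The CMV promoter is not restricted to 1 cell type, and there was no operated group without a vector. The age of the rats in weeks and the hour at which tissue was taken were not given in the sources used here.

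The circadian clock is a transcriptional loop that runs in most cells of the body, sensory ganglia included. The proteins made from *Clock*, or from its relative *Npas2*, pair with that of *Arntl* and bind E-box sequences to switch on the *Per* and *Cry* genes, whose products return to the nucleus and silence the pair. A second loop runs through *Nr1d1* and *Nr1d2*, whose nuclear receptors (REV-ERB) repress *Arntl* and *Npas2* through Rev-erb/ROR elements. *Dbp* and *Tef* encode activators of D-box sequences, *Nfil3* the repressor that competes with them, and *Ciart* a further repressor of the *Clock* and *Arntl* pair. Within a day, *Arntl* and *Npas2* peak at about the opposite time from *Per2*, *Per3*, *Ciart* and *Tef*.

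Each library held between 10057787 and 16002410 reads on genes. Of the 8 sensory neuron markers looked at, 7 had more than 5 reads per rat on average, and their summed level was 39735 to 49605 normalized counts in naive rats, 41259 to 65162 in bPYX+GFP rats and 41501 to 66662 in bPYX+NT3 rats. The exception was *Ntrk3*, the NT3 receptor gene, whose 3 identifiers had 0 reads. In bulk tissue, fewer cells of a type and less RNA per cell cannot be told apart. Reads were deposited per RefSeq identifier, and reads shared by several identifiers were not assigned to any. Genes with 1 identifier had a median of 2063 reads over the 18 rats, those with 2 identifiers 32 and those with 3 or more 8. *Dbp* had 3 identifiers with 2 reads in all, and *Clock* had 2 identifiers with 5 reads in all. Neither gene could be tested, and their counts say nothing about their level in DRG. The 0 reads of *Ntrk3*, which also has 3 identifiers, likewise say nothing about its level. *Nr1d1* had 2 identifiers, NM_001113422 with 736 reads and NM_145775 with 209 reads, and unless stated its values are those of the former, as part of its reads. The other 7 genes had 1 identifier each, with 1103 (*Ciart*) to 58011 (*Nr1d2*) reads. Thus 8 of the 10 genes had more than 10 reads in at least 6 rats.

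The clock genes differed widely from rat to rat in all 3 groups, with ranges that overlapped between the groups. *Arntl*, the partner shared by *Clock* and *Npas2*, ranged from 145.0 normalized counts in bPYX+GFP rat 57 to 578.2 in bPYX+NT3 rat 17. In naive rats the lowest, median and highest *Arntl* values were 264.2, 433.7 and 564.5, in bPYX+GFP rats 145.0, 253.9 and 562.0, and in bPYX+NT3 rats 247.0, 351.8 and 578.2. Each group thus held rats with high and with low values, and the 3 ranges overlapped over most of their length. The very lowest values were those of operated rats, and the lowest naive rat, rat 41, was number 6 from the lowest. *Ciart*, the repressor, ranged 6.72-fold over the rats. Its lowest, median and highest values were 17.8, 33.9 and 94.9 in naive rats, 21.6, 84.9 and 119.5 in bPYX+GFP rats, and 25.6, 42.6 and 113.3 in bPYX+NT3 rats. The lowest was naive rat 49 and the highest bPYX+GFP rat 15, and again low and high rats were found in every group.

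The period genes encode the repressors of the main loop. *Per2* had values of 127.1, 190.3 and 375.0 (lowest, median and highest) in naive rats, 104.0, 275.4 and 452.3 in bPYX+GFP rats and 162.7, 184.3 and 322.2 in bPYX+NT3 rats, a 4.35-fold range over all rats. *Per3* had values of 165.3, 247.6 and 402.6, then 162.4, 331.2 and 456.1, and then 190.4, 260.8 and 378.2 in the same order of groups. *Per1*, which is also switched on by glucocorticoid and by activity-dependent signals in many cells, had values of 328.7, 392.3 and 594.6, then 224.5, 461.8 and 617.9, and then 419.3, 491.9 and 662.5. For all 3 genes the bPYX+GFP group held the rat with the lowest value, rat 52, and for *Per2* and *Per3* it held the highest as well.

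The D-box activator *Tef* varied less, with values of 1172, 1346 and 1845 (lowest, median and highest) in naive rats, 1145, 1698 and 2184 in bPYX+GFP rats and 1240, 1683 and 1844 in bPYX+NT3 rats. *Nr1d2*, one of the REV-ERB receptors, had values of 2517, 3131 and 3596, then 2822, 3589 and 4384, and then 2359, 3014 and 4280 in the same order. *Nr1d1*, the other receptor, had values of 19.98, 35.1 and 52.1, then 25.4, 31.8 and 76.0, and then 32.6, 38.6 and 80.4. Rats 57 (bPYX+GFP) and 11 (bPYX+NT3) had the highest *Nr1d1* values of the 18. These 2 rats also had the lowest shares of reads outside annotated exons, which lie in introns or between genes. The shares were 31.7% and 30.8%, against 32.5% to 34.6% in the other rats. Whether that share had a part in their *Nr1d1* values was not tested.

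**Figure D1:**
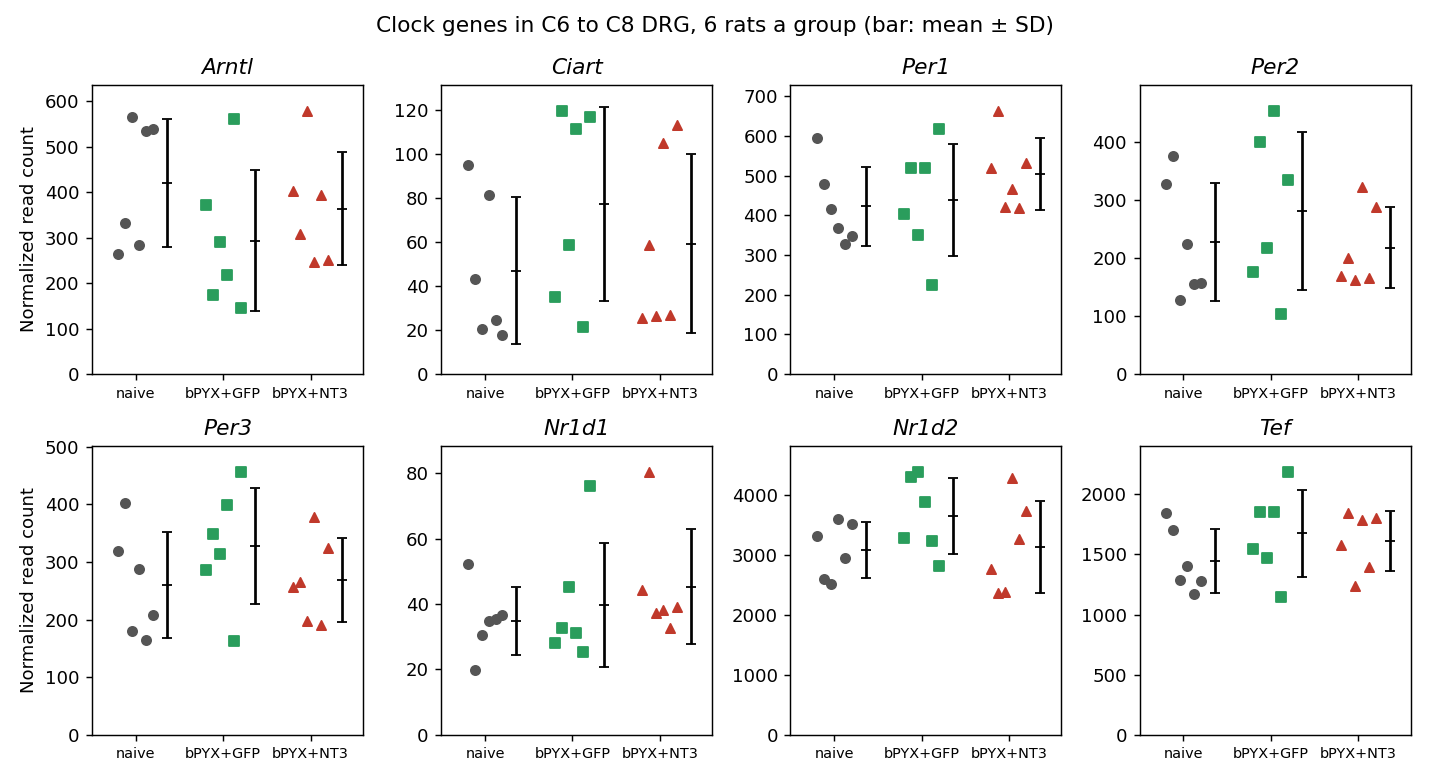
Normalized read counts (vertical axes, starting at 0) of the 8 clock genes with enough reads, in each of 6 rats per group (grey circles naive, green squares bPYX+GFP, red triangles bPYX+NT3), with the mean and SD of each group as a bar. *Arntl* ran from 145.0 to 578.2 and *Ciart* from 17.8 to 119.5, and every group covered most of that span.

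On the log2 scale, the SD between rats within groups was 0.99 for *Ciart*, 0.64 for *Per2*, 0.58 for *Arntl*, 0.48 for *Nr1d1*, 0.47 for *Per3*, 0.38 for *Per1*, 0.28 for *Nr1d2* and 0.27 for *Tef*. The median over 11543 genes tested in all 3 comparisons was 0.21, so all 8 lay above it. Low counts add to this SD, so each gene was also set beside the genes within 1 log2 unit of its own mean level. In that setting *Per2* was more variable than 99.2% of genes, *Arntl* and *Ciart* than 98.7%, *Nr1d2* than 97.1%, *Per3* than 95.3%, *Per1* than 93.4%, *Tef* than 93.1% and *Nr1d1* than 73.1%. The differences between group means made up 18.2% of the variance of *Arntl*, 16.3% of that of *Nr1d2* and 3.87% of that of *Per2*, against a median of 9.83% over all tested genes.

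The count files recorded for single samples would place 17 of the 18 rats in another group than the table does. The paper's log2 fold changes of *Nfil3* are -0.51 (bPYX+GFP against naive rats) and 0.60 (bPYX+NT3 against bPYX+GFP rats). For *Egr1* they are 0.49 (bPYX+NT3 against bPYX+GFP rats) and 0.76 (bPYX+NT3 against naive rats). The grouping of the table gave these same values, so it is the grouping that the study used. Every group comparison here depends on it. With the groups of the recorded titles, *Per2* passed an unadjusted p under 0.05 in bPYX+GFP against naive rats (0.54) and *Arntl* (0.62) and *Per2* (-0.79) in bPYX+NT3 against bPYX+GFP rats, and 11 of 27 fold changes of the 9 identifiers took the opposite sign.

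The first comparison asked which genes changed after injury with the control vector. In bPYX+GFP against naive rats, the quasi-likelihood test of edgeR called 0 of the 8 clock genes at an unadjusted p below 0.05, and 3.25% of the 11601 identifiers tested, and 0 passed after adjustment over all of them. 7 of the 8 fitted values were above 0 and *Arntl* was below 0, with a median log2 fold change of 0.24 for the 8 and 0.01 for all genes. The log2 fold change of *Arntl* was -0.52 ± 0.31 (SE; edgeR p = 0.114, exact permutation p = 0.132), and 5 of 6 bPYX+GFP rats lay below the naive median. That of *Ciart* was 0.75 ± 0.49 (edgeR p = 0.148, exact permutation p = 0.221), with 5 of 6 rats above the naive median. *Nr1d2* came nearest to the threshold, at 0.25 ± 0.12 (edgeR p = 0.0568, exact permutation p = 0.117), and the edgeR likelihood ratio test and DESeq2 each called it, and no other clock gene, with p = 0.045 and p = 0.049. The values of *Per1*, *Per2*, *Per3*, *Tef* and *Nr1d1* were between 0.07 and 0.34, with edgeR p between 0.167 and 0.748. The second *Nr1d1* identifier was at 0.58 ± 0.30 (edgeR p = 0.0801, exact permutation p = 0.173). The adjusted p of edgeR over all genes was 1.00 for each of the 8.

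This count depended on single rats. Without bPYX+GFP rat 52, whose *Arntl* was the highest of its group, *Arntl* passed at -0.81, *Tef* at 0.30, *Nr1d2* at 0.28 and the second *Nr1d1* identifier at 0.72. Without naive rat 41, *Ciart* passed at 1.08, and without bPYX+GFP rat 21 the second *Nr1d1* identifier passed at 0.70. *Nr1d2* passed at 0.30 without naive rat 44, at 0.29 without naive rat 49 and at 0.31 without bPYX+GFP rat 57. The other 6 rats changed no call when left out.

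The next comparison set injured rats that received NT3 beside naive rats. Here 0 of the 8 clock genes passed an unadjusted p below 0.05, where 6.01% of 11693 identifiers did, and 0 passed after adjustment. The likelihood ratio test and DESeq2 also called 0 of them. *Per1* was at 0.25 ± 0.15 (edgeR p = 0.115, exact permutation p = 0.143), with all 6 bPYX+NT3 rats above the naive median. Without naive rat 41, *Per1* passed at 0.38. *Arntl* was at -0.20 ± 0.24 (exact permutation p = 0.487) and *Ciart* at 0.34 ± 0.50 (exact permutation p = 0.563). The values of the other 5 genes ran from -0.07 for *Per2* to 0.39 for *Nr1d1*, with edgeR p of 0.150 or more and an adjusted p over all genes of 0.607 or more.

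The comparison of the 2 vectors after injury addressed what NT3 itself changed. In bPYX+NT3 against bPYX+GFP rats, 0 of the 8 clock genes passed an unadjusted p under 0.05, where 1.73% of 11623 identifiers did, and again 0 passed after adjustment or with the likelihood ratio test or DESeq2. The fitted values of *Arntl* (0.32 ± 0.31, exact permutation p = 0.281), *Ciart* (-0.41 ± 0.49, p = 0.489), *Per2* (-0.38 ± 0.31, p = 0.509), *Per3* (-0.30 ± 0.23, p = 0.340) and *Nr1d2* (-0.22 ± 0.15, p = 0.180) had the sign opposite to that of bPYX+GFP against naive rats. Both comparisons use the same bPYX+GFP rats, so that opposite signs are no separate evidence. Without bPYX+GFP rat 52, *Arntl* passed at 0.61 and *Per3* at -0.44, and without bPYX+NT3 rat 23 *Nr1d2* passed at -0.33. *Per1*, *Tef* and *Nr1d1* lay between -0.06 and 0.19, with edgeR p of 0.373 or more. The second *Nr1d1* identifier was at -0.52 ± 0.39 (exact permutation p = 0.258), and at 0.05 ± 0.33 (exact permutation p = 0.866) in bPYX+NT3 against naive rats.

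**Figure D2:**
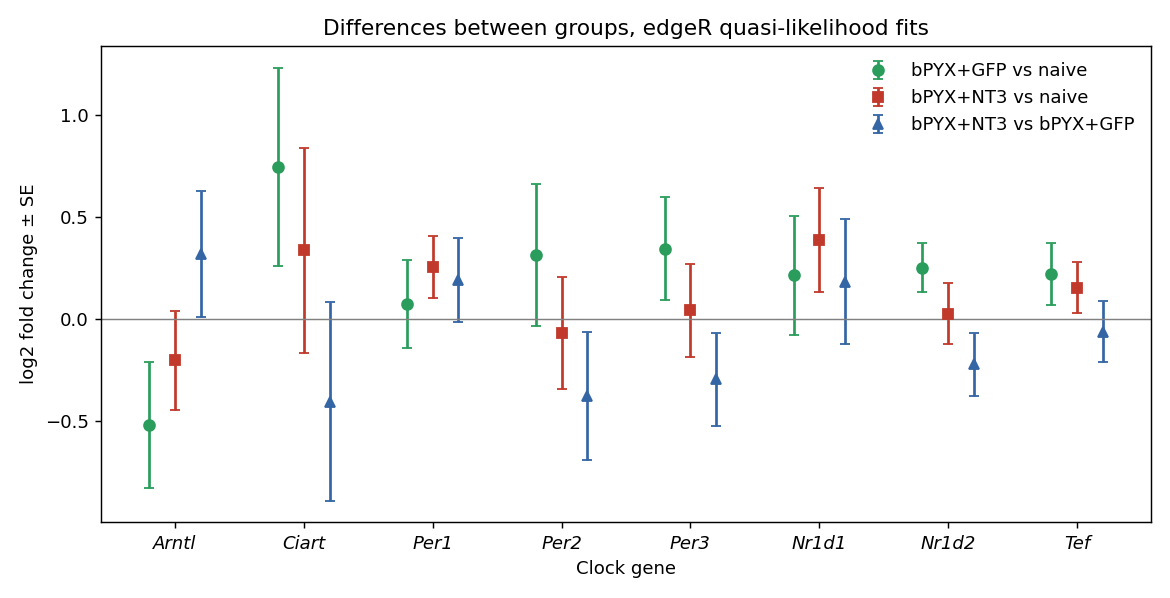
log2 fold change (vertical axis) with its standard error for 8 clock genes in bPYX+GFP against naive rats (green circles), bPYX+NT3 against naive rats (red squares) and bPYX+NT3 against bPYX+GFP rats (blue triangles). *Ciart* (0.75) and *Arntl* (-0.52) had the values farthest from 0 in bPYX+GFP against naive rats, and none of the 24 values passed an unadjusted p under 0.05.

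The variation between rats had a shape. With the 18 rats put in order of *Arntl*, *Ciart*, *Per2*, *Per3* and *Tef* ran the other way, whichever group a rat belonged to. The 5 rats with the highest *Arntl*, at 535.5 to 578.2 normalized counts, were 3 naive rats, 1 bPYX+GFP rat and 1 bPYX+NT3 rat. Their *Ciart* was 17.8 to 26.5, against 25.6 to 119.5 in the other 13 rats. Their *Per2* was 104.0 to 162.7, against 164.8 to 452.3, and their *Tef* was 1145 to 1290, against 1392 to 2184. For *Per2* and *Tef* these 5 rats and the other 13 did not overlap. At the other end stood bPYX+GFP rats 57, 15 and 21, bPYX+NT3 rats 23 and 40 and naive rat 41, with *Arntl* of 145.0 to 264.2 and *Ciart* of 94.9 to 119.5. In log2 units, *Ciart* over *Arntl* spanned -4.92 to -1.48 in naive rats, -4.70 to -0.31 in bPYX+GFP rats and -4.45 to -1.15 in bPYX+NT3 rats.

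**Figure D3:**
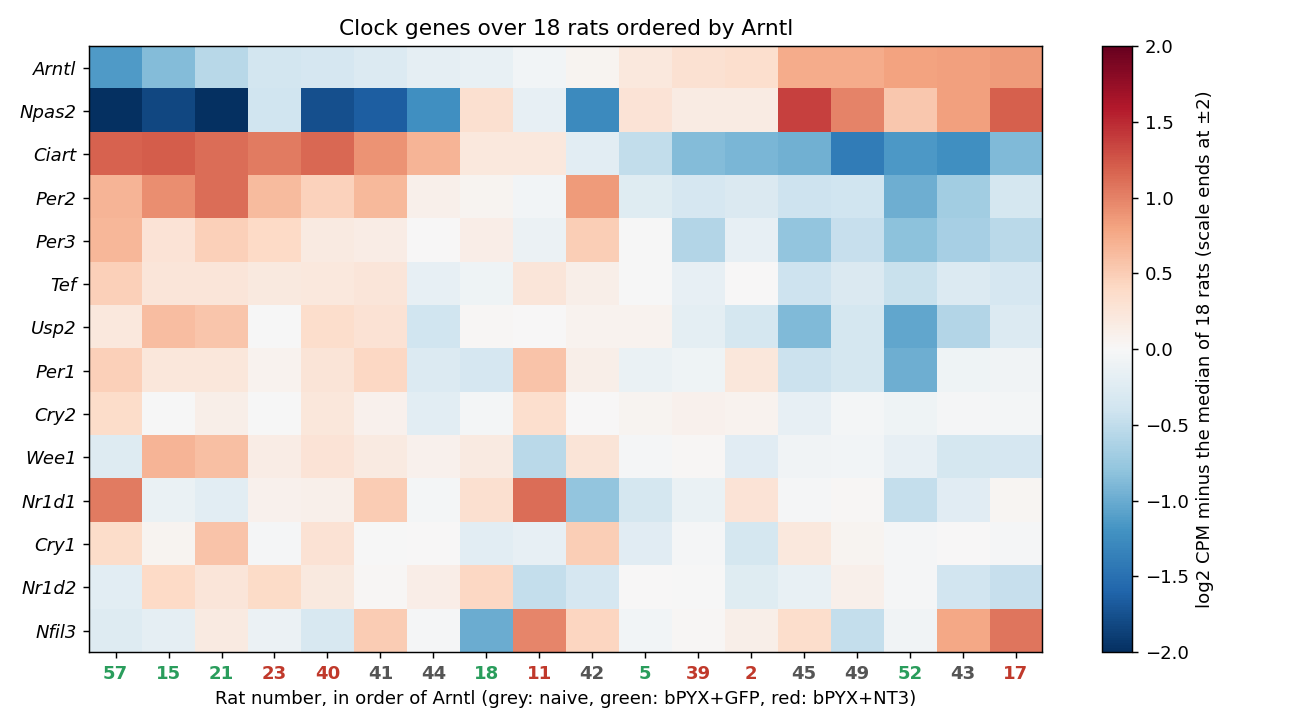
Level of 14 clock genes (rows) in 18 rats (columns, from the lowest to the highest *Arntl*), as log2 CPM minus the median of the gene over all rats, with red above and blue below the median and the scale ending at 2 log2 units. *Arntl* and *Npas2* went from blue to red from left to right while *Ciart*, *Per2*, *Per3* and *Tef* went from red to blue, and the rat numbers of the 3 groups (grey, green and red) were mixed along the order.

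Correlations were computed over the 18 rats on log2 CPM (counts scaled to the size of the library) after the mean of each group was taken off, with two-sided permutation of rats within groups. *Ciart* was inversely related to *Arntl*, with Pearson's r = -0.94 (permutation p = 1e-05, the smallest that 100000 resamples can give) and Spearman's rho = -0.89 (permutation p = 1e-05). *Tef* had r = -0.91 (permutation p = 1e-05) and rho = -0.80 (permutation p = 0.00042). *Per2* had r = -0.88 (permutation p = 7e-05) and rho = -0.84 (permutation p = 0.0003), and *Per3* had r = -0.88 (permutation p = 3e-05) and rho = -0.83 (permutation p = 0.00015). *Per1* had r = -0.78 (permutation p = 0.00095) and rho = -0.67 (permutation p = 0.00845). Of the 7 other clock genes, 5 thus passed an unadjusted p under 0.05 with *Arntl*, where 5.23% of all 11542 identifiers did. None of these identifiers passed after adjustment, since 2 genes at the smallest p that the resamples allow reach an adjusted p of 0.0577. That was the adjusted p of *Ciart* and *Tef*. For *Per3* it was 0.0866, for *Per2* 0.135 and for *Per1* 0.502.

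Within each group of 6 rats the relation was also inverse. For *Ciart* against *Arntl*, r was -0.97 in naive rats (exact permutation p = 0.00833), -0.97 in bPYX+GFP rats (exact permutation p = 0.00556) and -0.90 in bPYX+NT3 rats (exact permutation p = 0.0194). For *Per2* it was -0.86 (exact permutation p = 0.0556), -0.91 (exact permutation p = 0.025) and -0.88 (exact permutation p = 0.00556) in the same order. Leaving out the 2 rats farthest from the median of *Arntl* gave -0.95 for *Ciart*, -0.89 for *Per2*, -0.89 for *Tef*, -0.89 for *Per3* and -0.69 for *Per1*. The 5 rats with the highest *Arntl* lay apart from the others, since no rat had a value between 402.8 and 535.5. Within the other 13 rats, a subset chosen after seeing the data, r was -0.90 for *Ciart* (permutation p = 0.0001) and -0.75 for *Per2* (permutation p = 0.0196).

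The order of all genes by their r with *Arntl* had some of the clock genes at its ends. Of 11542 identifiers, *Ciart* had the lowest r, followed by *Tef*, *Per2* and *Per3*. The fifth lowest was *Ism1*, which encodes a secreted protein (r = -0.80), the sixth *Usp2*, a deubiquitinase gene driven by the clock in many tissues (r = -0.79), and *Per1* was number 8. The highest r of all belonged to *Npas2*, which encodes the relative of CLOCK that pairs with BMAL1 (r = 0.87, permutation p = 0.00017, adjusted p over all genes 0.196). It was followed by *Fabp7*, a fatty acid binding protein gene used as a marker of satellite glia (r = 0.85), *Kank1*, an adaptor at cell adhesions (r = 0.84), *Adamts15*, an extracellular protease (r = 0.82), and *Kdm1a*, a histone demethylase (r = 0.81). The ranking is a description, and genes in it are not independent of each other. The median absolute r with *Arntl* was 0.27 over all genes. Of the cell type markers, the summed level of the 4 satellite glia markers, *Fabp7* among them, had r = -0.12 with *Arntl*, and that of the 8 sensory neuron markers had r = -0.35. Genes with many reads weigh most in such sums. *Glul* had 98041 reads and *Cdh19* 78130, against 15690 for *Fabp7*, so the satellite glia sum says little about *Fabp7*. Among the neuron markers *Nefh* had 552123 reads. The list of *Mog*, *Olig2* and *Gfap*, named for central glia, had the value farthest from 0 of 10 marker lists, r = 0.53, as large as that of some clock genes. Its summed levels were 220.1 to 330.5 normalized counts in naive rats, 183.9 to 270.2 in bPYX+GFP rats and 246.7 to 565.4 in bPYX+NT3 rats. *Gfap* varied most, from 52 to 427 reads per rat, against 79 to 174 for *Mog* and 29 to 57 for *Olig2*. The part of these cells in the *Arntl* order was not tested.

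**Figure D4:**
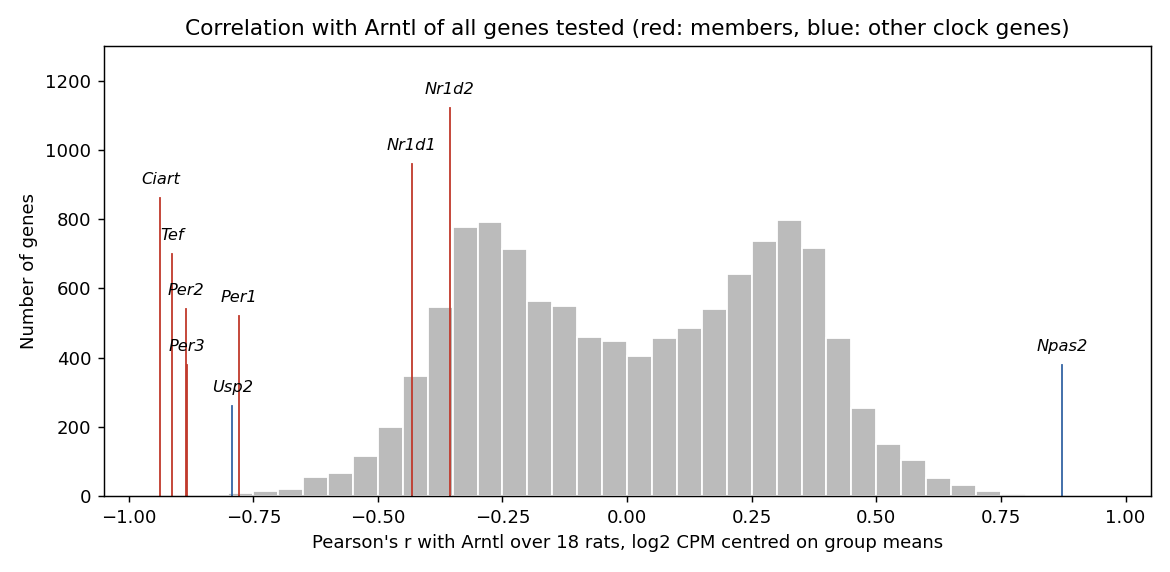
Number of genes (vertical axis) by Pearson's r with *Arntl* over 18 rats (horizontal axis) for 11542 identifiers, with clock genes marked by red lines (members) and blue lines (other clock genes). *Ciart* (-0.94), *Tef* (-0.91), *Per2* (-0.88) and *Per3* (-0.88) lay at the left end and *Npas2* (0.87) at the right end, while *Nr1d1* (-0.43) and *Nr1d2* (-0.36) lay within the bulk of genes.

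The genes that ran against *Arntl* ran with each other. *Per2* and *Per3* had r = 0.92 (permutation p = 1e-05) and rho = 0.89 (permutation p = 2e-05), and *Per3* and *Tef* had r = 0.91 (permutation p = 1e-05) and rho = 0.88 (permutation p = 4e-05). *Ciart* and *Per2* had r = 0.87 (permutation p = 7e-05). Of all 28 pairs among the 8 genes, 15 passed an unadjusted p under 0.05, and the same number passed when adjusted over the pairs. All 15 lay among *Arntl*, *Ciart*, *Per1*, *Per2*, *Per3* and *Tef*, and the 5 with a negative sign were those with *Arntl*. A large r was common in these data. Of all pairs of tested genes, 26.4% had an absolute r of at least 0.67, the value of the weakest of these 15 pairs. That share differed by gene. It was 0.719% of genes for *Arntl*, 0.355% for *Ciart*, 0.875% for *Per2* and 1.32% for *Per3*, but 5.05% for *Tef* and 24.7% for *Per1*. *Per3* was the second of 11542 identifiers by absolute r with *Per2*, and *Per2* the first with *Per3*.

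For the REV-ERB genes the relation with *Arntl* did not pass the threshold. *Nr1d1* had r = -0.43 with *Arntl* (permutation p = 0.112) and rho = -0.37 (permutation p = 0.175), and -0.26 without the 2 rats farthest from the *Arntl* median. With the reads of both *Nr1d1* identifiers added, a choice made after seeing the data, r was -0.54 (permutation p = 0.0438). *Nr1d2* had r = -0.36 with *Arntl* (permutation p = 0.162), rho = -0.41 (permutation p = 0.0942) and -0.57 without the 2 farthest rats. *Nr1d2* was high in the low-*Arntl* rats 15, 21, 23 and 40 (3731 to 4301 normalized counts) but low, at 2822, in rat 57, which had the lowest *Arntl* of all. Rats 57 and 11 had the lowest shares of reads outside annotated exons (31.7% and 30.8%), and rat 11 had the lowest *Nr1d2*, 2359. The values in this paragraph were taken without removing that share, with which *Nr1d2* moved (below). *Nr1d1* and *Nr1d2* had r = -0.16 with each other (permutation p = 0.554). *Dbp*, with 2 reads in all, could not be set against *Arntl*.

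**Figure D5:**
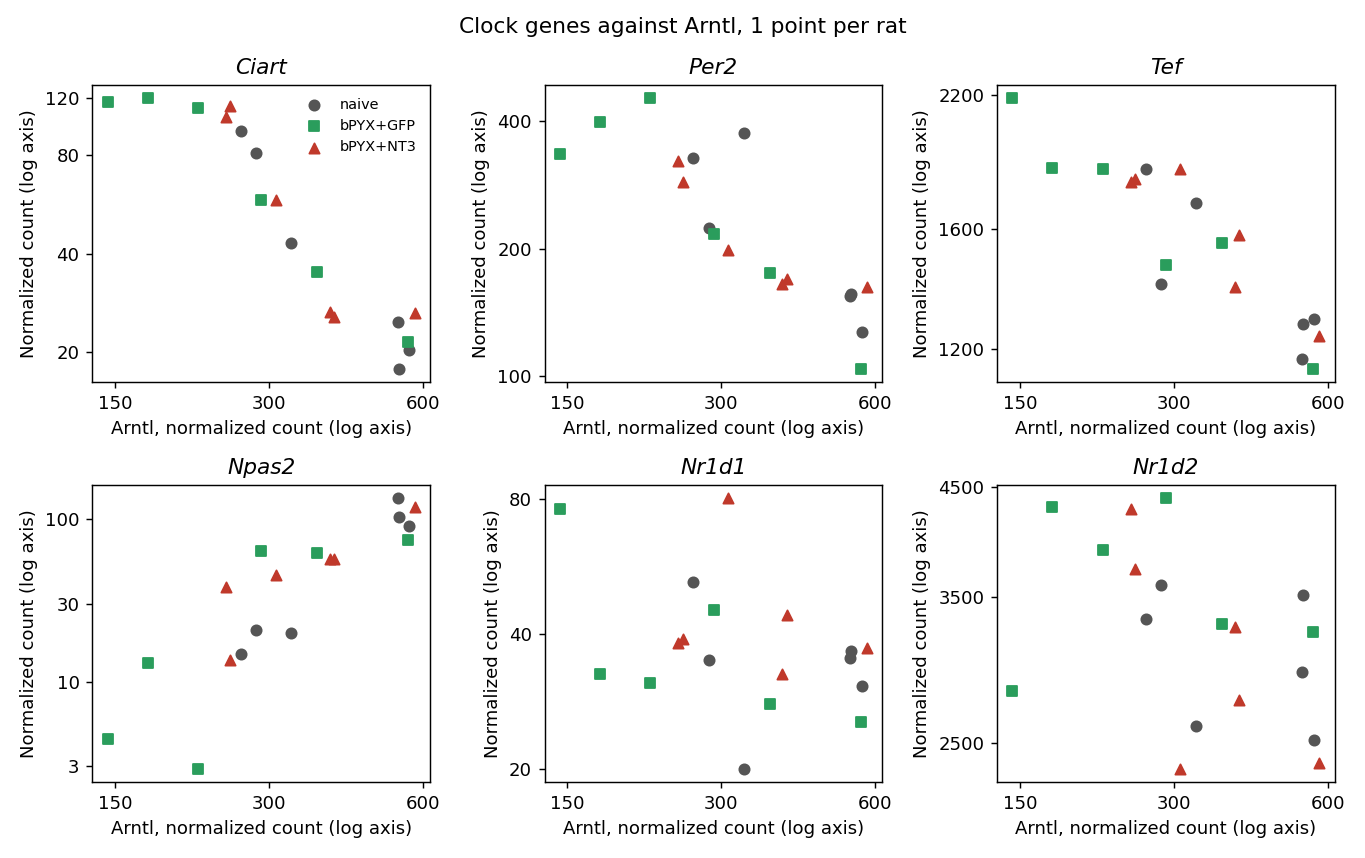
Normalized counts of 6 clock genes (vertical log axes) against *Arntl* (horizontal log axis), with 1 point per rat (grey circles naive, green squares bPYX+GFP, red triangles bPYX+NT3). *Ciart*, *Per2* and *Tef* ran against *Arntl* and *Npas2* with it in all 3 groups, while *Nr1d1* (r = -0.43) and *Nr1d2* (r = -0.36) were scattered. The share of reads outside annotated exons was not removed from these values.

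The share of reads outside annotated exons (in introns or between genes), which differed between libraries, moved with some of these genes. *Per1* had r = -0.71 with that share (permutation p = 0.00074, rho = -0.79), *Nr1d2* had r = 0.65 (permutation p = 0.00596, rho = 0.62) and *Tef* had r = -0.58 (permutation p = 0.0185, rho = -0.62). Without the 2 rats farthest from the median share these were -0.61, 0.46 and -0.42. *Nr1d1* had r = -0.63 (permutation p = 0.0161, rho = -0.21), and 0.04 without those 2 rats. For *Arntl* r was 0.39 (permutation p = 0.133) and for *Ciart* -0.29 (permutation p = 0.277). With the share removed from each gene, *Ciart* against *Arntl* kept r = -0.93 and *Per2* against *Arntl* r = -0.88. *Nr1d2* and *Arntl* each had a positive r with the share but r = -0.36 with each other. Removing the share therefore moves their r farther from 0 than -0.36, to a value not given here. The r of -0.36 is thus no sign that *Nr1d2* was unrelated to *Arntl*.

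The 5 genes whose promoter windows held an E-box, a D-box or a Rev-erb/ROR element are shown by sequence. Of these, *Nr1d1* did not pass with *Arntl*, while *Per1* and *Per3* passed and had none of these motifs in their windows. For 10 of 10 genes, RefSeq windows of the GRCr8 build from 250 bases before to 50 bases after the start site were given, 12 windows in all, and both strands were searched. The E-box CACGTG was found in *Ciart*, where its copies begin 93, 35 and 21 bases before the start site, in *Tef* 198 bases before it, and in 1 of 2 windows of *Nr1d1* 191 bases before it, and it was in 6.42% of all 33469 windows. The D-box, as TTATGTAA or TTACGTAA, was found in *Per2* 192 bases before the start site and in 1.01% of all windows. The Rev-erb/ROR element was found in *Arntl* 20 bases before the start site and in 0.356% of all windows. Only forms of this element that end in GGTCA, and only the exact E-box, were searched. Variants of either were therefore neither counted nor marked. The cyclic AMP element TGACGTCA was in none of the 12 windows and in 1.83% of all windows. Its short form TGACG, which lies within it, was in *Per2*, *Per3* and *Nr1d2* and in 21.2% of all windows. Each sequence is given from 5′ to 3′ with E-boxes, D-box or Rev-erb/ROR element in capitals. A match is a description of the sequence only.
*Ciart*, chr2:186112197-186112496, reverse strand: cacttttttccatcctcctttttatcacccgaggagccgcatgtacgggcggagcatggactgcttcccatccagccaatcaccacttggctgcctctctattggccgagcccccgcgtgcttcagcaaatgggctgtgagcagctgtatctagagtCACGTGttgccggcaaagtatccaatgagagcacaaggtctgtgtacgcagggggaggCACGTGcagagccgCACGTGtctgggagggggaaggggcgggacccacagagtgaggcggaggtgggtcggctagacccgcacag
*Tef*, chr7:115206577-115206876, forward strand: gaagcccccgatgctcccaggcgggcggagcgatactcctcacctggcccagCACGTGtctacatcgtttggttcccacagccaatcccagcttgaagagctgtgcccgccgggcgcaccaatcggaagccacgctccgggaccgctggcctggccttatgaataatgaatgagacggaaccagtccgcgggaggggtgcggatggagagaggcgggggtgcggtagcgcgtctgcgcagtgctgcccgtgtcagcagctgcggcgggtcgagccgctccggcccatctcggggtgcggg
*Nr1d1*, chr10:84229405-84229704, reverse strand: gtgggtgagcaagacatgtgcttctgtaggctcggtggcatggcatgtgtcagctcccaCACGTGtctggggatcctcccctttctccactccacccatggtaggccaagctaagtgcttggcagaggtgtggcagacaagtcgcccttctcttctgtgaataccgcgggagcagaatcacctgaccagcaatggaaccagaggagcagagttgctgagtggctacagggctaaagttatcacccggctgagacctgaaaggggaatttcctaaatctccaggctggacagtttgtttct
*Per2*, chr9:99496944-99497243, reverse strand: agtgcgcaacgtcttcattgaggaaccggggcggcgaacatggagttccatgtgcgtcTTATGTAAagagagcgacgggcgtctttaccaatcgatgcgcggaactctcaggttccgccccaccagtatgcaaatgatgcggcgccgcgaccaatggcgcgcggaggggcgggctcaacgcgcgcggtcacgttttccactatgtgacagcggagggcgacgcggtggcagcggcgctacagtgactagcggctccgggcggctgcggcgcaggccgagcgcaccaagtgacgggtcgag
*Arntl*, chr1:176766078-176766377, forward strand: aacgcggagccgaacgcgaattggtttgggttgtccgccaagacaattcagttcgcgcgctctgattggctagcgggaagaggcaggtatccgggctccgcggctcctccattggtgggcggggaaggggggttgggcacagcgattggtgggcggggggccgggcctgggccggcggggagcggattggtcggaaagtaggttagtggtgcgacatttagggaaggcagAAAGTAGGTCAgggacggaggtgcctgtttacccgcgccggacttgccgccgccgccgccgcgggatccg

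Of 22 further clock genes chosen for comparison, 16 could be tested, and 3 of these passed an unadjusted p under 0.05 with *Arntl*, namely *Npas2*, *Usp2* and *Cry2*. Of all 11542 identifiers, 5.23% did, and none of the 16 passed after adjustment over all of them. *Npas2* had the widest spread, with a within-group SD of 1.42 on the log2 scale, more than all but 8 of the 11543 tested identifiers. Its lowest, median and highest values were 14.9, 56.1 and 135.2 normalized counts in naive rats, 2.91, 37.5 and 74.8 in bPYX+GFP rats and 13.6, 51.2 and 118.6 in bPYX+NT3 rats. In naive and bPYX+NT3 rats the highest value was 9.08 and 8.72 times the lowest. In bPYX+GFP rats it was 25.8 times the lowest, but rats 21 and 57 had only 3 and 5 reads. Low counts add to the SD of *Npas2*. Among genes within 1 log2 unit of its mean level it was more variable than 99.7%. Its r with *Arntl* was 0.97 in naive rats (exact permutation p = 0.0389), 0.83 in bPYX+GFP rats (exact permutation p = 0.0528) and 0.87 in bPYX+NT3 rats (exact permutation p = 0.00833), and its rho over all rats was 0.83 (permutation p = 0.0006). The cryptochrome *Cry2* had r = -0.52 with *Arntl* (permutation p = 0.0464) but rho = -0.41 (permutation p = 0.113), and *Cry1* had r = -0.41 (permutation p = 0.157). *Wee1*, a cell cycle kinase gene under clock control, had r = -0.50 (permutation p = 0.0721) and -0.74 without the 2 rats farthest from the *Arntl* median. *Rora*, *Hlf* and *Bhlhe41* had no identifier matched to their symbol in the deposited counts and could not be analysed.

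Between groups, 1 of the 16 passed an unadjusted p under 0.05 in each comparison, beside 3.25%, 6.01% and 1.73% of all identifiers, and a count of 1 is no result about the list. None passed after adjustment. *Nfil3*, the D-box repressor, was lower in bPYX+GFP than naive rats, at -0.51 ± 0.22 (edgeR p = 0.0347, adjusted over all genes 1.00, exact permutation p = 0.0714), with all 6 rats below the naive median. *Timeless*, a gene of DNA replication and of the clock, was the only one of the 16 with an exact permutation p under 0.05 in any comparison, at -0.28 ± 0.14 in bPYX+GFP against naive rats (exact permutation p = 0.0130, edgeR p = 0.0618, adjusted 1.00), with all 6 rats below the naive median. *Nfil3* was higher in bPYX+NT3 than bPYX+GFP rats, at 0.60 ± 0.27 (edgeR p = 0.0445, adjusted 0.851, exact permutation p = 0.132), against the same bPYX+GFP rats. Its lowest, median and highest values were 60.0, 111.6 and 145.4 in naive rats, 41.2, 76.9 and 95.9 in bPYX+GFP rats and 67.1, 88.9 and 179.3 in bPYX+NT3 rats, so the groups overlapped. *Nfil3* had r = 0.20 with *Arntl* (permutation p = 0.438). *Cry2* was higher in bPYX+NT3 than naive rats, at 0.18 ± 0.07 (edgeR p = 0.0316, adjusted 0.607, exact permutation p = 0.0563), with 5 of 6 rats above the naive median. The *Nfil3* call in bPYX+GFP against naive rats was lost without naive rat 41, 42, 43 or 45 or bPYX+GFP rat 15 or 18, 6 of the 12 rats compared. That in bPYX+NT3 against bPYX+GFP rats was lost without bPYX+GFP rat 5, 15, 18, 52 or 57 or bPYX+NT3 rat 11 or 17. The *Cry2* call was lost without naive rat 44 or 45 or bPYX+NT3 rat 11 or 40. *Cry1* and *Npas2* passed in none of the 3 comparisons, with edgeR p of 0.178 or more and of 0.263 or more. With the groups of the recorded titles, other genes passed in place of *Nfil3* and *Cry2*, namely *Npas2* (lower) and *Cry1* (higher) in bPYX+GFP against naive rats, *Usp2* (lower) and *Cry1* (higher) in bPYX+NT3 against naive rats, and *Wee1* and *Usp2* (lower) and *Npas2* (higher) in bPYX+NT3 against bPYX+GFP rats.

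*Per1* was also set beside genes that respond to glucocorticoids and to neuronal activity, both of which act on *Per1* in other tissues. Of 8 glucocorticoid-responsive genes 7 were tested, with r against *Per1* of -0.33 to 0.78, and of 7 immediate early genes all were tested, with r of 0.03 to 0.53. The largest were *Ddit4*, a stress-induced inhibitor of mTOR signalling (r = 0.78, permutation p = 0.00089), *Zbtb16*, a transcription factor gene (r = 0.70, permutation p = 0.00439), *Fkbp5*, a co-chaperone of the glucocorticoid receptor (r = 0.65, permutation p = 0.00939), and *Egr1*, an activity-induced transcription factor gene (r = 0.53, permutation p = 0.0164). These values stand against a wide background, since 56.4% of all identifiers passed an unadjusted p under 0.05 with *Per1*, and the median absolute r was 0.55. With *Arntl*, none of these 14 genes passed an unadjusted p under 0.05, where 5.23% of all identifiers did. The lowest r was -0.46, for *Fkbp5*. Between groups, 1 of these 14 genes passed an unadjusted p under 0.05 in bPYX+GFP against naive rats, 4 in bPYX+NT3 against naive rats and 2 in bPYX+NT3 against bPYX+GFP rats. The shares of all identifiers that passed were 3.25%, 6.01% and 1.73% in the same order. None of the 14 passed after adjustment. *Zbtb16* was lower than in naive rats in bPYX+GFP rats (-0.93 ± 0.34, exact permutation p = 0.0346, edgeR p = 0.0162, adjusted over all genes 1.00) and in bPYX+NT3 rats (-1.08 ± 0.28, exact permutation p = 0.0108, edgeR p = 0.00192, adjusted 0.607), which share those naive rats. *Egr1* was higher in bPYX+NT3 than naive rats (0.76 ± 0.26, exact permutation p = 0.0260, edgeR p = 0.0111, adjusted 0.607) and than bPYX+GFP rats (0.49 ± 0.22, exact permutation p = 0.0693, edgeR p = 0.0467, adjusted 0.851), with all 6 rats above the median of the other group each time. *Junb*, another activity-induced gene, was higher than in naive rats (0.76 ± 0.35, exact permutation p = 0.113, edgeR p = 0.0470, adjusted 0.607) and than in bPYX+GFP rats (0.86 ± 0.39, exact permutation p = 0.0736, edgeR p = 0.0444, adjusted 0.851). *Pdk4*, a kinase gene of glucose metabolism, was higher in bPYX+NT3 than naive rats (0.32 ± 0.15, exact permutation p = 0.0887, edgeR p = 0.0496, adjusted 0.607). Both comparisons of *Egr1* and *Junb* use the same bPYX+NT3 rats.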

How the data were processed

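The authors pooled C6 to C8 DRG of the treated side per rat, enriched poly(A) RNA, prepared TruSeq Stranded libraries and sequenced paired ends. Per the submitters' processing notes and the study's methods, reads were demultiplexed with bcl2fastq 1.8.4, aligned to the rat genome rn6 with TopHat2, freed of duplicates with Picard and counted with HTSeq. The deposited values are raw read counts per RefSeq identifier, not normalized. Whether counting used the strand was not given in the sources used here. Symbols came from a RefSeq table of the GRCr8 assembly, which matched 14193 of 15075 identifiers. Groups came from the treatment labels, joined to the table through the sample name in its heading. Count files recorded for single samples held the same counts as the table for 18 of 18 rats, but 17 of 18 were recorded under a sample of another group. The grouping of the table gave the paper's log2 fold changes of *Nfil3* and *Egr1*. The table was used, and the groups of the recorded titles were an alternative.

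Group comparisons used edgeR 4.0.16 (R 4.3.3), with TMM scaling, a filter that kept identifiers above 10 reads in 6 or more of the 12 rats compared, the quasi-likelihood test, an unadjusted p threshold of 0.05 as in the study, and Benjamini-Hochberg adjustment over all identifiers tested. Normalized counts and log2 CPM (prior count 2) used TMM factors over 18 rats. Exact permutation tests were two-sided. Correlations used numpy 2.4.6 and scipy 1.17.1 with 100000 seeded resamples. DESeq2 1.42.0 was an alternative. Scripts were tested on simulated data. Depth was 10057787 to 16002410 reads per rat. Of all reads, 30.8% to 34.6% lay outside annotated exons, 2.79% to 3.41% were ambiguous and 19.0% to 22.3% aligned to several places. Members and lists were chosen with earlier results of these data known. The genes named were the 10 members, the other clock genes that passed in a comparison and, whatever their values, *Cry1*, *Cry2*, *Npas2*, *Nfil3*, *Hlf*, *Rora* and *Bhlhe41*, the 5 genes with the highest and the 5 with the lowest r with *Arntl*, and the 4 glucocorticoid-responsive or immediate early genes with the largest r with *Per1*. *Usp2*, *Wee1*, *Timeless*, *Csnk1e*, *Rorb*, *Junb*, *Pdk4* and the central glia markers were added after their values were seen. Likeness to *Dbp* could not be computed.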

Additional observations from a re-analysis of the deposited data

Results flagged for a closer look

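Among bPYX+NT3 rats, rat 11 stood apart in *Nr1d1*. It had 80.4 normalized counts, and the remaining 5 rats of the group ran from 32.6 to 44.2, a gap of 0.667 of the range of the group on the log2 scale. It was the only such value among 27 sets of 6 rats (9 identifiers in 3 groups). Chance gives such a value in about 1 of 20 sets, so 1 among 27 is no result by itself. Rat 11 had the lowest share of reads outside annotated exons, 30.8%, and its part in the value was not tested.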

How the results depend on the processing

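Under the other settings the inverse relation of *Ciart* and *Per2* with *Arntl* kept its sign and its side of the threshold, with r of -0.948 to -0.926 and -0.909 to -0.836 when single rats were left out. That of *Nr1d1* with *Arntl* ranged from -0.537 to -0.250 over single rats left out, passed without naive rat 42 (-0.537) and passed with both identifiers added (-0.539). The number of clock gene pairs that passed was 15 to 17 over single rats left out, 12 with centring on the groups of the recorded titles, 21 with the share of reads outside genes removed, and 5 in the 13 rats without the highest *Arntl*, where fewer rats entered.

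The number of clock genes that passed in bPYX+GFP against naive rats was 0 in the reported fit and 0 to 4 over single rats left out. It was 1 with the likelihood ratio test, DESeq2 or library size alone (*Nr1d2* each time). With the share of reads outside annotated exons as a covariate it was 2 (*Nr1d2* and *Arntl*), and with the groups of the recorded titles 1 (*Per2*). Against naive rats, bPYX+NT3 rats gave 0 to 1 over single rats left out. Against bPYX+GFP rats, they gave 0 to 2 over single rats left out and 2 with the recorded titles (*Arntl* and *Per2*). Of the other clock genes, 1 passed in each reported comparison. Over single rats left out this was 0 to 2, 0 to 2 and 0 to 1, and a count of 1 was not always the same gene. In bPYX+GFP against naive rats *Timeless* was added without bPYX+GFP rat 21 and *Usp2* without bPYX+GFP rat 52, and *Usp2* alone passed without naive rat 41 and *Timeless* alone without naive rat 43. In bPYX+NT3 against naive rats *Csnk1e* was added without naive rat 41 or bPYX+NT3 rat 39. In bPYX+NT3 against bPYX+GFP rats *Usp2* alone passed without bPYX+GFP rat 52 and *Wee1* alone without bPYX+GFP rat 57. For bPYX+GFP against naive rats it was 0 with 1 fit over the 3 groups, 2 with the covariate (*Nfil3* and *Cry2*) and 2 with the recorded titles (*Npas2* and *Cry1*). For bPYX+NT3 against naive rats it was 0 with the covariate and 2 with the recorded titles (*Usp2* and *Cry1*), and for bPYX+NT3 against bPYX+GFP rats 2 with no filter (*Nfil3* and *Rorb*), 0 with the covariate and 3 with the recorded titles (*Wee1*, *Npas2* and *Usp2*).

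None of the fold changes of single clock genes that turned sign had passed. With the recorded titles in bPYX+GFP against naive rats, *Nr1d1* was at -0.36 and its second identifier at -0.24. For bPYX+NT3 against naive rats, *Per1* was then at -0.32, *Nr1d1* at -0.16 and its second identifier at -0.36, *Ciart* at -0.18, *Tef* at -0.17, *Per3* at -0.19, *Nr1d2* at -0.066 and *Arntl* at 0.30, and in bPYX+NT3 against bPYX+GFP rats *Per1* was at -0.37. With the covariate, *Nr1d1* in bPYX+NT3 against bPYX+GFP rats was at -0.068. Over single rats left out, the values that turned sign ranged as follows. For bPYX+GFP against naive rats, *Per1* ran from -0.061 to 0.199 and *Nr1d1* from -0.10 to 0.363. For bPYX+NT3 against naive rats, *Per3* ran from -0.080 to 0.218, *Per2* from -0.213 to 0.14, *Nr1d2* from -0.086 to 0.099 and the second *Nr1d1* identifier from -0.11 to 0.246. For bPYX+NT3 against bPYX+GFP rats, *Nr1d1* ran from -0.079 to 0.495 and *Tef* from -0.152 to 0.031. Of 588 values of single genes under alternatives, 533 kept sign and side of the threshold, 34 turned sign and 21 came to pass. The cause was not tested for any of these changes. The planned correlations with *Dbp* were not run, since it had 2 reads. Adding identifiers, leaving out the rats with the highest *Arntl* and the correlations of *Ciart* and *Per2* were chosen after seeing the data. No paired analysis was possible because the table names rats by numbers that no other group shares. Among the 8 clock genes, *Nr1d1* (736 and 209 reads in its identifiers) and *Ciart* (1103 reads) had the fewest reads and so the largest counting error.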
